A study of Homo sapiens with 6 samples.

Results

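The genes of the unfolded protein response and of protein folding in the endoplasmic reticulum (ER) were measured as 34 of the 58884 genes in the deposited RNA-seq count table. They were taken by gene symbol, and comprised 4 sensors and sensor-linked factors (XBP1, ERN1, ATF6, EIF2AK3), 16 chaperones and folding or translocation factors of the ER, 7 genes of ER-associated degradation, and 7 genes of the PERK/ATF4 arm. All 34 had a row, and 33 had enough counts to be tested. DERL3 did not, and it is given by its counts only.

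The libraries came from DLD1, a human colorectal adenocarcinoma cell line that carries a helical-domain mutation of PIK3CA, the gene of the PI3K catalytic subunit p110α. The parental cells (3 libraries) were compared with cells in which a lysine and the arginine next to it in p85β, a regulatory subunit of PI3K encoded by PIK3R2, had been replaced by alanine (K477A and R478A, called p85β KR-AA, 3 libraries). Both groups share the PIK3CA mutation and the cell line, and no treatment was named for either. These residues lie in the predicted nuclear localization signal of p85β, and the comparison asks which transcripts differ when that signal is mutated. The study describes KR-AA knock-in clones, and the libraries were numbered 1 to 3 without a clone name, so clone and genotype cannot be told apart. The source labels of KR-AA libraries 2 and 3 read R479A and R480A, while their titles and genotype labels read R478A.

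Proteins of the secretory pathway fold in the ER with the help of chaperones, lectins and disulfide isomerases, and proteins that fail to fold are moved out and degraded. The unfolded protein response senses the load through proteins of the ER membrane. IRE1α (ERN1) cuts the XBP1 transcript so that the active factor XBP1s is made, PERK (EIF2AK3) phosphorylates eIF2α and raises translation of ATF4, and ATF6 moves to the Golgi, where proteolysis frees its transcription factor domain. XBP1s and ATF6 bind ER stress response elements (ERSE) in chaperone promoters, while ATF4 acts with C/EBP factors on C/EBP-ATF response elements (CARE) of amino acid and stress genes. A gut epithelium with secretory cells depends on this system.

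The cut that IRE1α makes in XBP1 is shown because the counts cannot see it. In an annotated transcript of XBP1 (ENSG00000100219) of 1850 bases, the removed piece of 26 bases, in capitals, spans bases 567 to 592. It lies within an annotated exon, in the coding part, on the minus strand of GRCh37, in the window chr22:29192106-29192149.
XBP1: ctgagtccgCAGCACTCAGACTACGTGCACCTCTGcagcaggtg
Counts were summed per gene, so transcripts with and without these 26 bases entered the same value. XBP1 levels here are therefore total XBP1.

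The response elements were read from RefSeq promoters on GRCh38.p14 (250 bases before to 50 bases after each start), where 31 of the 34 genes had an entry. PDIA3, DERL1 and DERL3 had none. The ERSE was searched on both strands as CCAAT, any 9 bases and CCACG. It stood in 25 of 27303 genes with a promoter (0.0916%) and in 7 of the 31 members. The windows are shown because genes that share the element moved in opposite directions. Capitals mark the element, and each is written 5′ to 3′ on the strand that carries it.
HSPA5, chr9:125241386-125241414, minus strand: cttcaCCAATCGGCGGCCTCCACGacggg
HSP90B1, chr12:103930211-103930239, plus strand: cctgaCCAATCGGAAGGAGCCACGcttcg
HSP90B1, chr12:103930316-103930344, minus strand: acccaCCAATCGCGCCGCACCACGcaccc
CANX, chr5:179698773-179698801, plus strand: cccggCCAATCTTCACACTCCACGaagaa
PDIA6, chr2:10812848-10812876, minus strand: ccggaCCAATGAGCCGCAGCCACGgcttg
XBP1, chr22:28800598-28800626, minus strand: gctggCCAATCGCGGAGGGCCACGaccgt
CALR, chr19:12938379-12938407, minus strand: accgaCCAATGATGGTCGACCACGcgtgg
CRELD2, chr22:49918549-49918577, minus strand: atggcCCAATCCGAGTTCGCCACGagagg
A second element, ERSE-II (ATTGG, any base and CCACG, on both strands), stood in 19 genes (0.0696%), and 3 of them were members.
SDF2L1, chr22:21642109-21642129, minus strand: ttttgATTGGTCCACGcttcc
HERPUD1, chr16:56932020-56932040, plus strand: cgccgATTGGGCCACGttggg
HYOU1, chr11:119057375-119057395, plus strand: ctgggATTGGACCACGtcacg
HYOU1, chr11:119057269-119057289, plus strand: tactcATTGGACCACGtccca
The CARE, searched as TGATGNAA, stood in 1217 genes (4.46%) and in 4 members of differing roles.
CHAC1, chr15:40953257-40953274, minus strand: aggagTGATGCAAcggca
ASNS, chr7:97872464-97872481, minus strand: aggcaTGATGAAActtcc
ATF3, chr1:212565211-212565228, plus strand: caggaTGATGGAAggctg
HERPUD1, chr16:56931961-56931978, minus strand: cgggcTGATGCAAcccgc
The unfolded protein response element TGACGTGG stood in 253 genes (0.927%), among members only in HYOU1, where it overlaps an ERSE-II. The 250 bases before the start of HSPA5, the ER chaperone BiP, carry the ERSE match shown above close to the start. They lie at chr9:125241344-125241593 on the minus strand, with that match in capitals. Copies that differ from the letters searched are not marked.
HSPA5: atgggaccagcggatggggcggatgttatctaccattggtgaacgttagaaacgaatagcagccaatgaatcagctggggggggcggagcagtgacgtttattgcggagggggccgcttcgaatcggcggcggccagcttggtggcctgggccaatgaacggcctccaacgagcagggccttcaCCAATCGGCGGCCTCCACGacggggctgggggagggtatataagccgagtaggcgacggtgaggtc

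Library totals ran from 20301932 to 20873475 counts in parental cells and from 20301396 to 26712816 in KR-AA cells, and 1 count was worth 0.0273 to 0.0728 CPM (counts scaled to library size). CPM is given here after TMM scaling, which aligns libraries on genes of middling change and which used factors of 0.677 to 0.777 for parental and 1.35 to 1.41 for KR-AA libraries. Replacing TMM by library totals raised the median log2 fold change of all 16059 genes tested from 0.32 to 1.24, a shift of 0.92, so small differences between the groups depend on the scale. The edited gene PIK3R2 stood at 12.3 to 34.8 CPM in parental and 4.54 to 16.6 CPM in KR-AA libraries (log2 fold change -0.93, SE 0.42, adjusted p = 0.0558 in edgeR), and gene counts do not show the substitution. Summed over 16 colon epithelial markers the level was 58700 to 80900 CPM in parental and 9180 to 10700 CPM in KR-AA libraries. Most of both sums came from KRT8, KRT18 and KRT19. Of 15 tested, 9 were down-regulated (60%, against 17.6% of all genes tested) and 2 up-regulated (13.3%, against 28.6%). The up-regulated ones were CDH1 (means of 97.3 CPM in parental and 344 CPM in KR-AA) and CDH17 (6.6 and 28.5 CPM). EPCAM stayed detected in every library at 146 to 363 CPM. Of the 16 mesenchymal markers 9 were up-regulated of 11 tested (81.8%, against 28.6% of all genes tested). The sum of the 16 went from 7.86 to 10.8 CPM to 6370 to 7270 CPM. Most of the KR-AA sum came from FN1 (mean 4990 CPM) and VIM (mean 1770 CPM). PDGFRA was at 0 throughout, COL1A2 was at 0 in every KR-AA library, and THY1, TWIST1 and SPARC were too low to be tested. Blood and plasma markers summed to 54.9 to 66.9 and 37 to 45.6 CPM, with MS4A1 at 0. Neither of 2 tested passed 3-fold, and as a share of counts the sum was higher in KR-AA libraries. Goblet and secretory markers summed to 93.9 to 114 and 195 to 243 CPM, with CLCA1 at 0. Of 6 tested, 2 were up-regulated (33.3%, against 28.6% of all genes tested) and 1 down-regulated (16.7%, against 17.6%). The part of these marker shifts in the results on the ER genes was not tested. In bulk RNA, fewer cells of a type and less RNA per cell cannot be told apart.

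A gene is called up- or down-regulated here when it differed at least 3-fold with an adjusted p under 0.01 in edgeR's quasi-likelihood test, corrected by Benjamini-Hochberg over all genes tested. Of the 33 members tested, 9 were up-regulated (27.3%), against 28.6% of all genes tested. A further 5 were down-regulated (15.2%), against 17.6% of all genes. With no fold threshold 14 members were higher (42.4%, against 41.6%) and 14 were lower (42.4%, against 32.7%), and 5 did not pass. The shares of up-regulated, down-regulated and higher members thus lay near those of all genes. Their median log2 fold change was 0.21, beside 0.32 for all genes. Levels of the 2 groups did not overlap for 30 of 33 members, and for 83.4% of all genes.

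**Figure D1:**
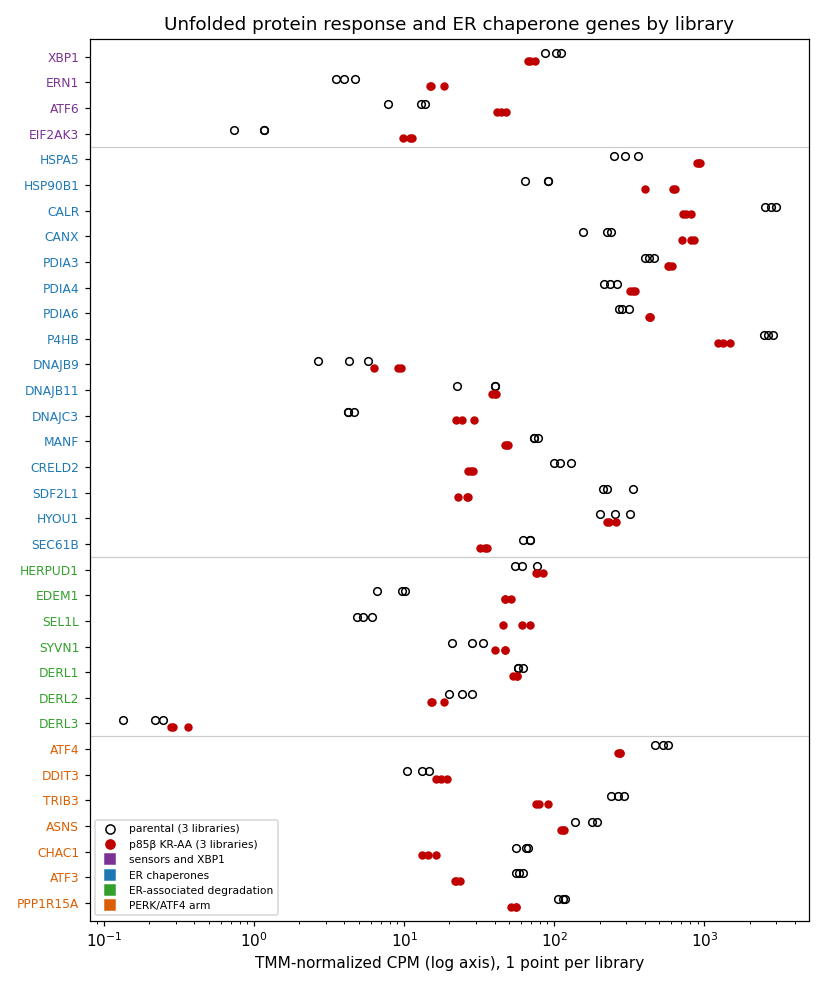
TMM-normalized CPM of each of the 34 genes on a log axis, with 1 point per library (open circles, parental; red, p85β KR-AA) and gene names coloured by role. EIF2AK3 and SEL1L lie far to the right in KR-AA cells, SDF2L1, CALR and CHAC1 to the left, and DERL3 sits below 1 CPM in all 6 libraries.

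On the TMM scale the 3 sensor genes ERN1, EIF2AK3 and ATF6 were up-regulated and XBP1 was lower, and ATF6 and XBP1 changed sign on other scales. ERN1, the kinase and endoribonuclease IRE1α, measured 3.99, 3.50 and 4.69 CPM in parental libraries and 14.9, 15.1 and 18.5 CPM in KR-AA libraries. Every KR-AA value was above every parental value (log2 fold change 1.99, SE 0.20, adjusted p = 1.25e-06 in edgeR). The direction held in 14 of 14 alternative analyses. Once gene length was fitted, the size fell to 0.35 and no longer passed (edgeR adjusted p = 0.121). With length and GC content fitted it was 0.89, which passed the adjusted p but was under 3-fold.

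ATF6 encodes the membrane-tethered transcription factor. Its levels were 7.84, 13.0 and 13.8 CPM in parental and 48.0, 44.4 and 41.2 CPM in KR-AA libraries. Parental library 1 was the lowest, and the groups were well apart. The log2 fold change was 1.95 (SE 0.20, edgeR adjusted p = 1.61e-06). With gene length fitted it was 0.37 and no longer passed (edgeR adjusted p = 0.127). It turned to -0.31 when gene length and GC content were both fitted.

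EIF2AK3, the eIF2α kinase PERK, was low in parental cells, with 0.731, 1.17 and 1.17 CPM (11, 16 and 19 counts), and at 11.0, 11.3 and 9.80 CPM in KR-AA cells. No library of either group came near the other group. The log2 fold change of 3.38 (SE 0.25, edgeR adjusted p = 7.02e-08) ranged from 1.87 to 4.30 over the 14 alternatives and passed the 3-fold call in each of them.

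XBP1, the transcript that IRE1α cuts, measured 86.1, 102 and 111 CPM in parental and 74.8, 69.4 and 66.8 CPM in KR-AA libraries. The groups did not overlap, though parental library 1 was close to the KR-AA values. The log2 fold change was -0.50 (SE 0.13, edgeR adjusted p = 0.00379) on the TMM scale, 0.42 with library totals, 0.22 with gene length fitted and -1.03 with length and GC content fitted (edgeR adjusted p = 3.23e-06), so no direction held for it across scales. As a share of the counts of the 34 genes, XBP1 took 0.921 to 1.20% in parental and 0.928 to 1.03% in KR-AA libraries, ranges that overlap.

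The ER chaperones moved in both directions, about as often as all genes did. Of 16 tested, 4 were up-regulated (HSPA5, HSP90B1, CANX, DNAJC3; 25%, against 28.6% of all genes) and 3 were down-regulated (CALR, CRELD2, SDF2L1; 18.8%, against 17.6%), with a median log2 fold change of 0.34. Abundant genes had other shares. Of all genes tested with a mean log2 CPM of at least 6, 8.37% were up-regulated and 41.9% down-regulated, with a median of -1.29. HSPA5, the ER HSP70 BiP that holds unfolded chains and keeps the sensors inactive, measured 297, 251 and 361 CPM in parental and 920, 892 and 930 CPM in KR-AA libraries. The KR-AA libraries lay close together and above all parental ones. The 3.02-fold difference (log2 1.59, SE 0.15, edgeR adjusted p = 4.62e-07) sat at the 3-fold threshold, and the call held in 9 of 14 alternatives. It was lost with gene length fitted (log2 1.16) and with length and GC content fitted (log2 0.42). It was also lost in DESeq2 (log2 1.53) and without parental library 1 (log2 1.57) or 2 (log2 1.45).

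HSP90B1 encodes GRP94, the HSP90 of the ER lumen. It measured 63.3, 91.1 and 90.4 CPM in parental and 636, 620 and 403 CPM in KR-AA libraries. KR-AA library 3 was the lowest of its group and still above every parental library. The log2 fold change of 2.76 (SE 0.20, edgeR adjusted p = 6.46e-08) passed the 3-fold call in 14 of 14 alternatives, from 1.69 to 3.69.

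Calnexin and calreticulin, related lectins that hold newly made glycoproteins, moved in opposite directions. CANX, the membrane-bound calnexin, measured 156, 223 and 237 CPM in parental and 813, 847 and 710 CPM in KR-AA libraries (log2 fold change 1.94, SE 0.16, edgeR adjusted p = 2.32e-07). CALR, the soluble calreticulin, measured 2760, 2990 and 2550 CPM in parental and 748, 717 and 812 CPM in KR-AA libraries (log2 fold change -1.87, SE 0.13, edgeR adjusted p = 3.62e-08). Neither gene overlapped between groups, and both kept their direction in 14 of 14 alternatives. With gene length fitted they were at 1.06 and -1.20, under 3-fold. With length and GC content fitted, CANX was at 0.19 and no longer passed, while CALR was at -0.82 and did.

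DNAJC3, the J-domain cochaperone and PERK inhibitor p58IPK, measured 4.25, 4.22 and 4.63 CPM in parental and 24.1, 29.1 and 22.2 CPM in KR-AA libraries. The groups were far apart (log2 fold change 2.52, SE 0.19, edgeR adjusted p = 6.89e-08), and the value was 1.40 with gene length fitted and 0.52 with length and GC content fitted, both under 3-fold. SDF2L1 encodes an ER protein that works with J-domain cochaperones of BiP. It measured 225, 332 and 211 CPM in parental and 22.9, 26.4 and 26.8 CPM in KR-AA libraries. This was the lowest fold change of the members on the TMM scale (log2 -3.34, SE 0.19, edgeR adjusted p = 9.07e-09), and it shrank to -0.62 with gene length and GC content fitted.

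CRELD2, a secreted ER stress-inducible protein, measured 99.9, 129 and 109 CPM in parental and 28.8, 26.7 and 27.9 CPM in KR-AA libraries. The KR-AA values were nearly alike and lay below every parental value (log2 fold change -2.02, SE 0.14, edgeR adjusted p = 4.12e-08). The difference came under 3-fold at -1.09 with library totals, -1.15 with gene length fitted and -0.70 with length and GC content fitted. MANF, another ER-resident and secreted stress protein, was lower by less, at log2 -0.64, and turned to 0.29 with library totals, 0.51 with gene length fitted and 0.53 with length and GC content fitted.

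Among the disulfide isomerases, PDIA3, PDIA4 and PDIA6 rose, with log2 fold changes of 0.46, 0.49 and 0.59 on the TMM scale, PDIA3 being at -0.06 and PDIA6 at 0.27 when length and GC content were fitted, neither of which passed. P4HB (PDI), at 2500 to 2880 CPM in parental and 1240 to 1480 CPM in KR-AA libraries, fell by 0.99 on the log2 scale. It was at -0.07 with library totals and at 0.15 with length and GC content fitted, neither of which passed. The J-domain protein gene DNAJB9 (ERdj4) was higher by 0.98 on the log2 scale. That call was lost with length and GC content fitted (0.03) and without parental library 1 or 3 or KR-AA library 1 or 2. DNAJB11 (ERdj3) was at 0.21 and did not pass (edgeR adjusted p = 0.338), with 1.14 for library totals and -0.71 for length and GC content fitted, both past the adjusted p. An unnamed gene on the same strand shares 451 exon bases with DNAJB11, with mean counts of 51.48 in parental and 56.7 in KR-AA libraries. HYOU1, the large HSP70-like nucleotide exchange factor GRP170, was at -0.12 (edgeR adjusted p = 0.512), with parental libraries at 200 to 320 CPM around KR-AA libraries at 223 to 259 CPM. It was called higher with library totals (0.80) and lower with gene length fitted (-0.76). SEC61B, a subunit of the translocon through which chains enter the ER, was at -0.96. It was at -0.03 with library totals, which did not pass, and turned to 0.51 with gene length fitted.

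**Figure D2:**
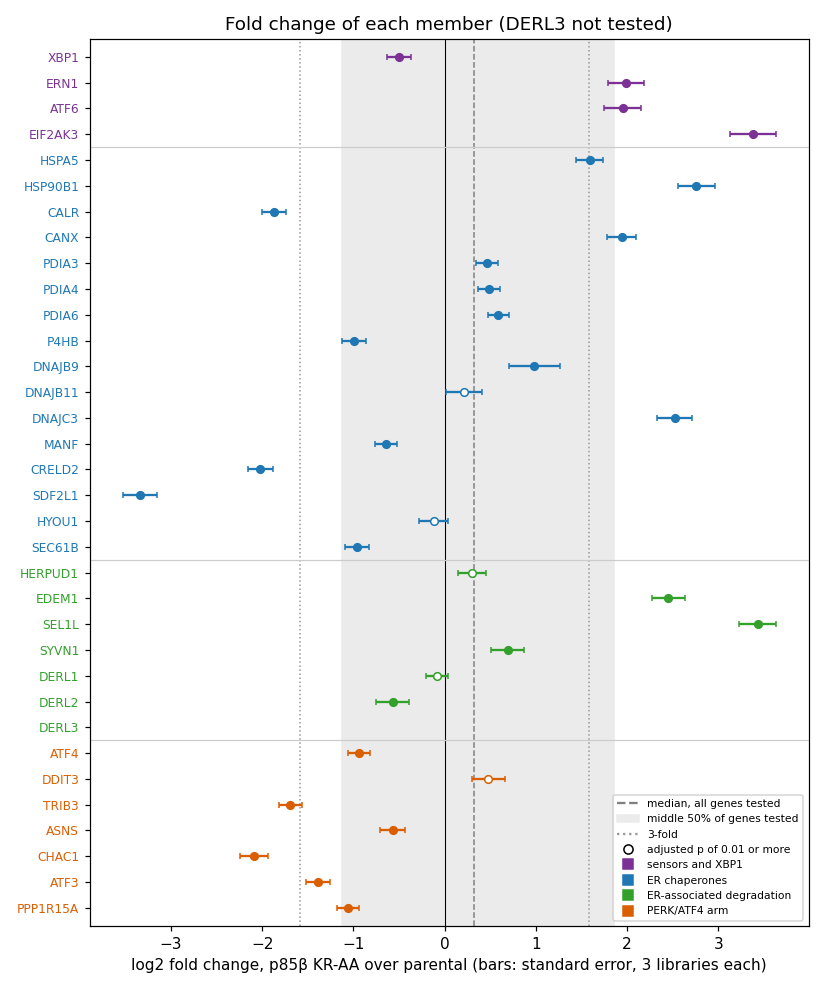
Log2 fold change (p85β KR-AA over parental, TMM scale) of each of the 33 genes tested, with its standard error as a bar and n = 3 libraries a group; open points did not pass an adjusted p of 0.01. The grey band holds the middle 50% of all genes tested around their median of 0.32, and values run from -3.34 (SDF2L1) to 3.43 (SEL1L), some of which change sign on other scales.

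The degradation genes were higher or did not pass, with DERL2 as the exception. EDEM1, which picks out misfolded glycoproteins by trimming their mannoses, measured 6.63, 9.66 and 10.2 CPM in parental and 46.8, 51.4 and 46.8 CPM in KR-AA libraries. The groups were far apart (log2 fold change 2.45, SE 0.18, edgeR adjusted p = 7.83e-08). The direction held in 14 of 14 alternatives, but the value came under 3-fold at 1.18 with gene length fitted and at 0.82 with length and GC content fitted. SEL1L, the adaptor of the HRD1 ubiquitin ligase, measured 4.85, 6.12 and 5.31 CPM in parental and 61.3, 68.5 and 45.7 CPM in KR-AA libraries. KR-AA library 3 was again the lowest of its group and above every parental library. Its log2 fold change of 3.43 was the highest of the members on the TMM scale (SE 0.20, edgeR adjusted p = 1.12e-08), and it was 0.99 with length and GC content fitted.

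SYVN1, the HRD1 ligase itself, rose by less, with a log2 fold change of 0.69, and kept that direction in 14 of 14 alternatives. Its exons overlap FAU on the same strand over 130 bases and MRPL49 on the other strand over 356 bases, genes with mean counts of 19455 and 4706 in parental libraries, so its count is uncertain. HERPUD1, which recruits substrates to the ligase, was at 0.30 (edgeR adjusted p = 0.0741), with 1.22 and a call of higher for library totals and -0.04 for length and GC content fitted. DERL1, a channel component, was at -0.08 (edgeR adjusted p = 0.569), but was called higher with library totals (0.84) and lower with length and GC content fitted (-1.06). DERL2, its paralog, was lower at -0.57 (edgeR adjusted p = 0.00878), at 0.36 with library totals and at -2.16 with length and GC content fitted, and the call held in 3 of 14 alternatives. The exons of DERL2 overlap MIS12 on the other strand over 301 bases, a gene with mean counts of 154.91 in parental and 303.99 in KR-AA libraries. DERL3 had 2.0, 3.0 and 4.0 counts in parental and 10.5, 8.0 and 9.9 counts in KR-AA libraries, at or near the floor of 3 counts in parental cells. It shares 2923 exon bases with SMARCB1 on the opposite strand, so these few counts are uncertain as well.

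The PERK/ATF4 arm went the other way from its kinase on the TMM scale. Of its 7 genes 6 were lower (85.7%, against 32.7% of all genes), 2 of them down-regulated (28.6%, against 17.6%), and DDIT3 did not pass. Abundant genes fell more often than all genes. Of those tested with a mean log2 CPM of at least 6, 69.7% were lower and 41.9% down-regulated, with a median of -1.29. The part of abundance in the values of this arm was not tested. The median log2 fold change was -1.06, which came to -0.14 with library totals, -0.66 with gene length fitted and 0.24 with length and GC content fitted. ATF4, the transcription factor whose translation PERK signalling raises, measured 466, 571 and 528 CPM in parental and 275, 264 and 275 CPM in KR-AA libraries. The groups did not overlap (log2 fold change -0.94, edgeR adjusted p = 1.33e-05). The value was -0.02 with library totals and 0.03 with gene length fitted, neither of which passed, and 0.72 with length and GC content fitted. RNA counts say nothing of ATF4 protein, which is set mainly by translation.

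DDIT3, the pro-apoptotic factor CHOP, measured 10.4, 13.1 and 14.6 CPM in parental and 19.3, 17.6 and 16.2 CPM in KR-AA libraries. All KR-AA libraries were above all parental ones, but the difference did not pass (log2 fold change 0.48, SE 0.18, edgeR adjusted p = 0.0251). It was positive in 14 of 14 alternatives, from 0.34 to 1.68, and passed the 3-fold call with gene length fitted. Part of its exons, 355 bases, overlaps MARS1 on the other strand, a gene with a mean count of 3549 in parental and 4098 in KR-AA libraries, and the labels do not say whether strand was used.

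TRIB3, a pseudokinase induced by ATF4 and CHOP, measured 289, 240 and 266 CPM in parental and 79.3, 76.0 and 91.0 CPM in KR-AA libraries. The groups were apart (log2 fold change -1.69, SE 0.13, edgeR adjusted p = 1.19e-07), with -0.80 when gene length was fitted and a turn to 0.36 when length and GC content were fitted. CHAC1, which breaks down glutathione, measured 64.4, 66.6 and 55.2 CPM in parental and 13.2, 14.4 and 16.2 CPM in KR-AA libraries. It too had no overlap (log2 fold change -2.09, SE 0.15, edgeR adjusted p = 6.41e-08), but was at -1.18 with gene length fitted and at -0.04 with length and GC content fitted.

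ATF3, a stress-induced factor of the ATF/CREB family, was lower at 21.9 to 23.4 CPM in KR-AA against 55.7 to 61.9 CPM in parental libraries. Its log2 fold change of -1.39 (SE 0.13, edgeR adjusted p = 8.27e-07) was the member of this arm whose call held in 14 of 14 alternatives, from -1.45 to -0.46. PPP1R15A (GADD34), the phosphatase subunit that removes the PERK mark from eIF2α, was at -1.06. It was at -0.14 with library totals and turned to 0.24 with length and GC content fitted, neither of which passed. ASNS, asparagine synthetase, was at -0.57, at 0.36 with library totals and at -1.26 with length and GC content fitted. An unnamed lncRNA on the same strand shares 2415 exon bases with ASNS, with mean counts of 333.6 and 414.66, so the split of reads between them is uncertain.

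Ratios of counts within a library do not depend on how libraries are scaled, and they differed widely between the groups for the lectins and BiP. The pairs were chosen after the values were seen, and they are given without a test. HSPA5 stood to CALR as 0.108, 0.0839 and 0.141 in parental libraries and as 1.23, 1.24 and 1.15 in KR-AA libraries. CANX stood to CALR as 0.0746 ± 0.018 (SD, n = 3) and as 1.05 ± 0.156. For HSP90B1 to CALR the means were 0.0296 ± 0.00625 and 0.737 ± 0.208. These 3 ratios differed by 3.47, 3.83 and 4.62 on the log2 scale, with no overlap of the groups. They are not free of gene length and GC content. The differences between the fitted log2 fold changes of the same pairs were 2.36, 2.26 and 4.12 with gene length fitted and 1.24, 1.01 and 2.51 with length and GC content fitted.

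The same shift stood in each gene's share of the counts of all 34 genes. CALR took 27.7 to 32.0% of them in parental and 10.1 to 11.3% in KR-AA libraries, and P4HB 26.8 to 30.8% and 17.4 to 20.5%. HSPA5 went from 2.68 to 3.91% to 12.6 to 12.9%, and CANX from 1.67 to 2.56% to 9.87 to 12.0%. PDIA3 went from 4.28 to 4.98% to 8.02 to 8.46%. The count ratio of PDIA3 to PDIA4 was 1.82 ± 0.0574 in parental and 1.78 ± 0.0256 in KR-AA libraries, with overlap, and that of PDIA3 to PDIA6 was 1.49 ± 0.0154 and 1.36 ± 0.0326, with none. Within the PERK/ATF4 arm the ratio of DDIT3 to CHAC1 went from 0.208 ± 0.053 to 1.23 ± 0.229, and that of EIF2AK3 to ATF4 from 0.00194 ± 0.000338 to 0.0395 ± 0.00352. On the log2 scale these 2 ratios differed by 2.58 and 4.36, and by 1.45 and 1.15 with length and GC content fitted.

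**Figure D3:**
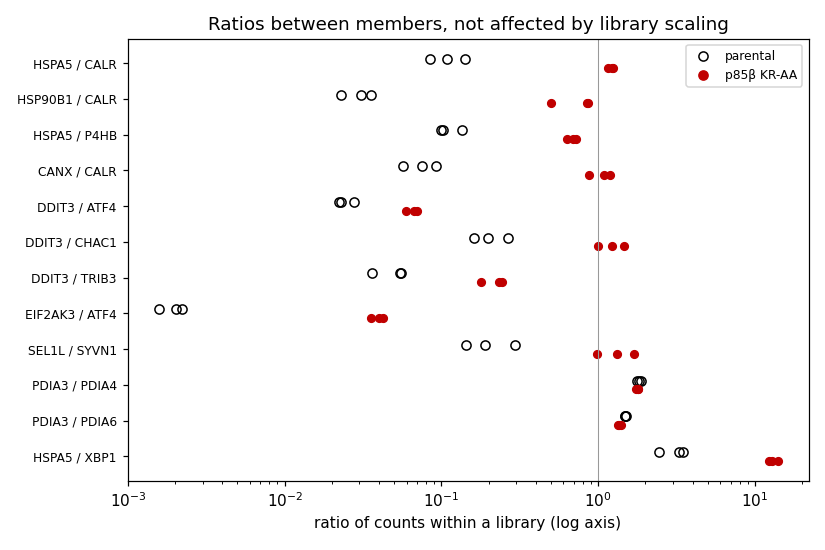
Ratio of the counts of 2 members within each library, on a log axis, with 1 point per library (open circles, parental; red, p85β KR-AA). HSPA5 to CALR sits near 0.111 in parental and near 1.21 in KR-AA libraries, while PDIA3 to PDIA4 overlaps between the groups near 1.8.

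Levels between genes were compared per length, as TPM (counts per base of gene length), which sets each library to the same total of length-scaled counts. It is a scale of its own, so TPM is used here for the order of genes within a group and not for changes between groups. CALR (1440 ± 44.9 TPM, SD, n = 3) and P4HB (1100 ± 164 TPM) led in parental cells, followed by ATF4 (365 ± 35.0 TPM) and SDF2L1 (304 ± 45.2 TPM). In KR-AA cells P4HB (1430 ± 89.9 TPM) and CALR (1030 ± 39.1 TPM) led, followed by HSPA5 (605 ± 4.37 TPM), HSP90B1 (518 ± 131 TPM) and ATF4 (496 ± 5.98 TPM). The last 2 of these overlap in their spread. HSPA5 was at rank 10 of the 34 in parental and rank 3 in KR-AA cells, HSP90B1 at 20 and 4, and SDF2L1 at 4 and 16. P4HB and ATF4 read higher in KR-AA cells as TPM but lower as TMM-scaled CPM, which shows the difference of scale. The sensors stayed near the bottom in both groups, with ERN1 at 0.517 ± 0.126 and 5.30 ± 0.555 TPM and EIF2AK3 at 0.224 ± 0.0581 and 6.13 ± 0.605 TPM.

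Summed levels show how far the scale matters for the set. On the TMM scale the 34 genes summed to 9230 to 9350 CPM in parental and 7090 to 7270 CPM in KR-AA libraries. As a share of all counts they went the other way, from 0.632 to 0.717% in parental to 0.973 to 0.997% in KR-AA libraries. The chaperones behaved the same, at 7700 to 7910 and 6080 to 6240 CPM and at 0.527 to 0.598% and 0.835 to 0.856% of counts. The degradation genes were higher on both, from 177 to 199 CPM to 295 to 309 CPM and from 0.0120 to 0.0148% to 0.0399 to 0.0435% of counts.

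Gene length moved with the fold changes of the members, as it did across all genes. Of the 9 members longer than 4000 bases, 7 were up-regulated, none down-regulated and their median log2 fold change was 1.99. All genes of that length had a median of 1.65, with 50.9% up-regulated and 3.97% down-regulated. Of the 9 members of 1000 to 2000 bases, none was up-regulated and 4 were down-regulated, with a median of -1.39, and all genes of that length had a median of -0.70, with 13.4% and 30.4%. ERN1 (7895 bases) and ATF6 (7470 bases), at 1.99 and 1.95, lay near the median of 1.65 for all genes over 4000 bases. HSP90B1 (2782 bases, log2 2.76) lay above the median of 0.24 for genes of 2000 to 4000 bases. HYOU1 (4367 bases, log2 -0.12) lay below 1.65, but near the short end of that open band, so 1.65 is not the median at its own length. With gene length fitted HYOU1 was at -0.76. CALR (1903 bases) at -1.87 and DDIT3 (1067 bases) at 0.48 lay to either side of the median of -0.70. The part of length and of GC content in the results was not tested beyond fitting them as offsets.

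With gene length fitted as an offset, 4 members were up-regulated (EIF2AK3, HSP90B1, SEL1L, DDIT3) and SDF2L1 alone was down-regulated, while 24.2% and 12.9% of all genes were. With length and GC content fitted, 3 were up-regulated (EIF2AK3, HSP90B1, SYVN1) and DERL2 alone was down-regulated, beside 17.8% and 6.55% of all genes. With library totals the counts were 11 and 1, beside 43.9% and 6.08% of all genes. Over all 14 alternatives 18 of 33 members kept the sign of their fold change and 15 did not. EIF2AK3, HSP90B1 and ATF3 were the 3 members whose call was the same in each.

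**Figure D4:**
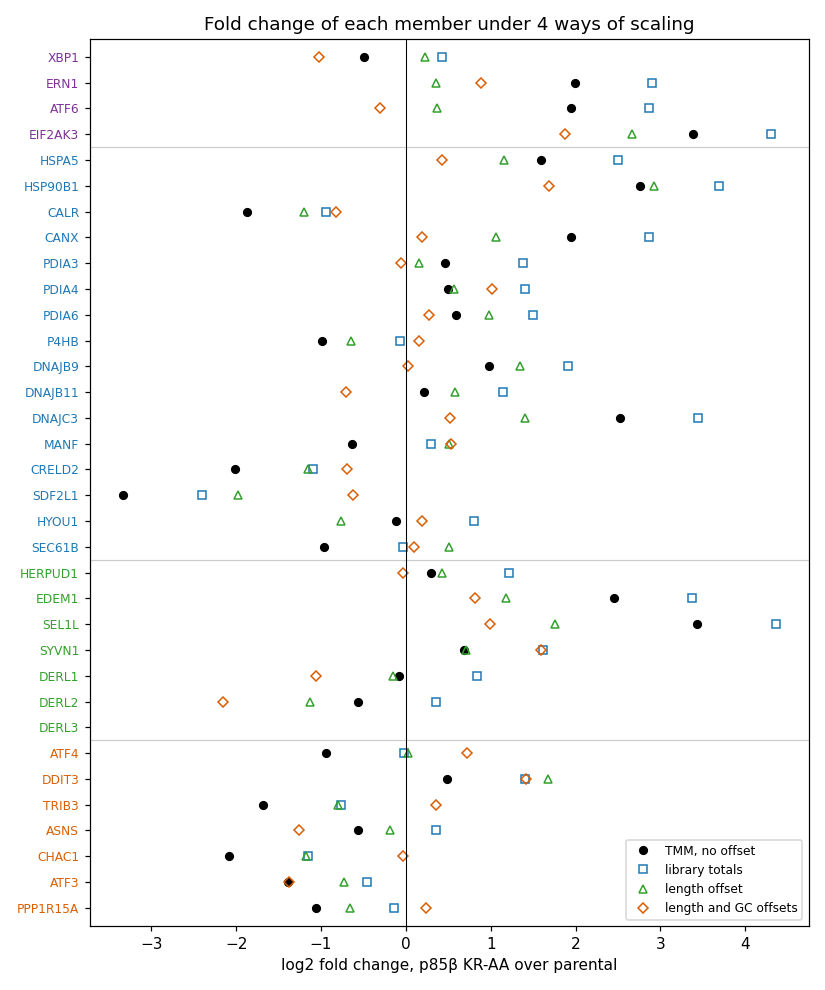
Log2 fold change (p85β KR-AA over parental) of the 33 genes tested under 4 ways of scaling: TMM (black circles), library totals (squares), a gene length offset (triangles) and length and GC offsets (diamonds). EIF2AK3 stays between 1.87 and 4.30 and CALR below 0, while ATF4 runs from -0.94 to 0.72 and ATF6 from -0.31 to 2.87.

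Members that share an ERSE did not share a direction. On the TMM scale, no members with an ERSE-II or with a CARE were called in opposite directions. Of the 7 members with an ERSE, HSPA5, HSP90B1 and CANX were up-regulated, PDIA6 was higher, CALR and CRELD2 were down-regulated and XBP1 was lower on the TMM scale. Over all tested genes with an ERSE, 6 of 16 were up-regulated and 3 down-regulated, beside 28.6% and 17.5% of the 11670 tested genes with a promoter. Of the 3 members with an ERSE-II, SDF2L1 was down-regulated and HYOU1 and HERPUD1 did not pass. Of the 4 members with a CARE, CHAC1, ATF3 and ASNS were lower (ASNS at 0.36 with library totals) and HERPUD1 did not pass, while all 323 tested genes with that element had a median log2 fold change of 0.91, with 39.6% up-regulated and 11.5% down-regulated. A match describes letters in the promoter and does not show that a factor bound there.

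Further genes of the pathway were read from lists that leave out the members. Their fold changes are on the TMM scale with no offset, and the part of gene length and GC content in them was not tested. Of 51 other ER folding genes tested, 14 were up-regulated (27.5%, against 28.6% of all genes) and 5 down-regulated (9.8%, against 17.6%), with a median log2 fold change of 0.15. The prolyl isomerase gene FKBP10 was highest (7.21 to 9.69 CPM in parental and 321 to 376 CPM in KR-AA libraries, log2 5.33), followed by the disulfide reductase gene DNAJC10 (4.07) and FKBP14 (4.02). The lowest were FKBP2 (-2.24), CNPY3 (-2.08) and ERP29 (-1.91). FKBP10 and FKBP14 both act on procollagen folding.

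Of 33 other degradation genes, 9 were up-regulated (27.3%, against 28.6% of all genes) and 8 down-regulated (24.2%, against 17.6%), with a median of -0.32. EDEM3, a mannosidase of the EDEM1 family, went from 0.308 to 0.947 CPM to 9.69 to 20.3 CPM (log2 4.54), and the ubiquitin ligase gene MARCHF6 (3.01) and UBXN4 (2.92), an ER anchor of the p97 ATPase, followed. RNF5, another membrane ubiquitin ligase, was lowest (148 to 218 CPM in parental and 22.7 to 24.5 CPM in KR-AA libraries, log2 -2.94), followed by UBXN6 (-2.30) and SGTA (-2.27).

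Of 25 other sensor and signalling genes, 5 were up-regulated (20%, against 28.6% of all genes) and 7 down-regulated (28%, against 17.6%), with a median of 0.01. MBTPS2, the site-2 protease that cuts ATF6, went from 0.728 to 2.41 CPM to 20.1 to 29.1 CPM (log2 4.08). PPP1R15B, the constitutive eIF2α phosphatase subunit, was at 2.92, unlike its inducible relative PPP1R15A at -1.06, which came to 0.24 with length and GC content fitted. The ER-tethered factors CREB3L2 and CREB3 stood at 2.83 and -3.02, BBC3 (PUMA), a target of CHOP and p53, at -2.34 and EIF2B5, a subunit of the eIF2B exchange factor, at -2.06.

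Of 45 other genes known as ATF4 targets, 17 were up-regulated (37.8%, against 28.6% of all genes) and 9 down-regulated (20%, against 17.6%), with a median of 0.47. Among those with a mean log2 CPM of at least 3, the cystine carrier gene SLC7A11 was highest. It went from 0.731 to 1.67 CPM to 38.9 to 65.8 CPM (log2 5.56), followed by the ER-phagy receptor gene CCPG1 (4.78) and the amino acid carrier gene SLC38A2 (4.11). The mitochondrial protease gene LONP1 (-2.62), JDP2 (-2.60) and the proline synthesis gene PYCR1 (-2.58) were lowest at that level. Less abundant genes went further, with ALDH1L2 at 7.61, CBS at 6.70 and NUPR1 at -3.49. Together, 45 of 154 pathway genes tested were up-regulated (29.2%) and 29 down-regulated (18.8%), beside 28.6% and 17.6% of all genes. Among 40 chaperones outside the ER, 3 were up-regulated (7.5%) and 9 down-regulated (22.5%), with a median of -0.34.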

How the data were processed

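RNA-seq libraries of DLD1 parental and p85β KR-AA cells (3 each) were analysed. SeqPrep and Sickle were used for trimming of paired reads, and the submitters' processing notes name HISAT2 2.1.0, RSEM 1.3.1, DESeq2 1.24.0 and the human build hg18. The authors deposited estimated counts per gene, which need not be whole, with gene lengths. These were rounded to whole numbers for testing. How reads were assigned by strand is not given in the sources used here. Every value column belonged to a mapped sample.

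Genes were filtered with filterByExpr (minimum count 10, minimum total 15), scaled by TMM and tested with edgeR 4.0.16 (glmQLFit and glmQLFTest) in R 4.3.3, with Benjamini-Hochberg adjustment over 16059 genes. SEs came from the fold change (log2) divided by the root of F. Calls used the study's thresholds (3-fold, adjusted p under 0.01). Nothing in the labels says that libraries came from separate cultures, so p-values measure the spread between these libraries, which may be technical. Replicate libraries differed by more than counting noise (chi-square per degree of freedom 4.08 to 35.8), and counting error alone is smaller than that spread. TPM was computed from counts and deposited lengths. Same-numbered libraries did not deviate together (mean correlation -0.0284, others 0.0127), so numbers were not used as pairs.

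Alternatives were DESeq2 1.42.0, library totals, no filter or at least 10 counts in every library, each library left out, a replicate block, and offsets for length or for length and GC content (splines with 5 degrees of freedom, limma 3.58.1 loaded). On counts simulated for this comparison (15684 genes tested), edgeR recovered 99% of genes changed by log2 2 and 100% at log2 3. Recovery was counted by an adjusted p under 0.01 with no fold threshold, so it is not the share that would be called. Unchanged genes were counted as called by both thresholds, and there were 3. With a length bias added to the simulated counts, 260 unchanged genes were called with no offset and 1 with the length offset. That bias had a form the offset can fit and no GC content part, so it cannot test the offsets on these data. Genes were matched to GENCODE release 44 on GRCh37 and to RefSeq promoters on GRCh38.p14. Deposited coordinates were not used, and no position was converted between builds. Figures were drawn with matplotlib 3.10.9 in Python 3.11.15.

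The 34 members, the pathway and marker lists and the rule for named genes were chosen with earlier results of these data known. Named were all members, with each library's value for the sensors, ATF4, DDIT3, HSPA5 and every member past 3-fold, and up to 3 genes per direction in each pathway list among those past both thresholds with no overlap between groups and a mean log2 CPM of at least 3.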

Additional observations from a re-analysis of the deposited data

How the results depend on the processing

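Leaving out 1 library gave 8 to 9 up-regulated and 5 to 5 down-regulated members, 10 to 14 higher and 11 to 14 lower members, and 4404 to 4783 up-regulated and 2774 to 2992 down-regulated genes in all. The lowest count of higher members came without KR-AA library 1, where PDIA3, PDIA4, DNAJB9 and SYVN1 lost their calls, and the lowest of lower members without KR-AA library 1, 2 or 3 in turn, where XBP1, DERL2 and ASNS did; DNAJB9 also lost its call without parental library 1 or 3 or KR-AA library 2. DNAJB11 ran from -0.03 to 0.31 and HYOU1 from -0.30 to 0.06, with the changed signs without parental library 1. With library totals 1 member was down-regulated and 6 were lower, 7050 genes were up-regulated and 976 down-regulated (87.8% of calls up, against 61.9% with TMM), and 6 members changed sign, namely XBP1 0.42, MANF 0.29, HYOU1 0.80, DERL1 0.84, DERL2 0.36 and ASNS 0.36. With at least 10 counts in every library 2898 genes were up-regulated, from fewer genes tested (12693), and HYOU1 was at 0.08 and DERL1 at 0.12. With a length offset 4 members were up-regulated and 1 down-regulated, and XBP1 was at 0.22, MANF at 0.51, SEC61B at 0.51 and ATF4 at 0.03. With length and GC offsets 3 members were up-regulated, 1 down-regulated and 9 lower, 2830 genes were up-regulated and 1041 down-regulated, and 11 members changed sign: ATF6 -0.31, PDIA3 -0.06, P4HB 0.15, DNAJB11 -0.71, MANF 0.53, HYOU1 0.19, SEC61B 0.09, HERPUD1 -0.04, ATF4 0.72, TRIB3 0.36 and PPP1R15A 0.24. The cause of these changes was not tested. Under a replicate block the calls over all genes came to 4626 up and 2827 down, 9 members were up-regulated and 5 down-regulated, and PDIA3 and DERL2 lost the adjusted p; robust moderation under that block, chosen after seeing the data, gave 4618 and 2823. DESeq2 moved HSPA5 below 3-fold (log2 1.53) and changed no other call of a member, and with no filter on low counts DERL2 lost its call. Depth limited DERL3, and the members with fewest counts that were tested, EIF2AK3 and DNAJB9, stood at few CPM in parental libraries.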
